A study of Mus musculus with 9 samples.

Results

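The shape of the dose response was described for the single-symbol probe sets measured in E14 mouse embryonic stem cells at 3 dose levels of 5-iodotubercidin (5-ITu): solvent alone, 0.1 µM and 1.0 µM. Of 10476 deposited probe sets, 9911 lay above the background signal, 8.46 on the log2 scale, on at least 3 of the 9 arrays and were tested. Of these, 8414 name 1 gene each (8198 genes) and were sorted by shape. E14 is an established mouse line that self-renews in serum with LIF, the cytokine that holds such cells undifferentiated. All 3 groups were kept in this medium for 26 h with DMSO, with 0.1 µM 5-ITu or with 1.0 µM 5-ITu. Each group holds 3 biological replicates of this 1 line, with 1 Affymetrix Mouse Gene 2.0 ST array per replicate. All values below are log2 signals, so a difference of 1 is a change by a factor of 2, and levels of different probe sets are not compared.

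5-ITu is an adenosine analogue that occupies the ATP pocket of kinases. It is used as an inhibitor of Haspin, the kinase that phosphorylates threonine 3 of histone H3 in mitosis and so helps to place Aurora B at centromeres. It also inhibits adenosine kinase, and it is known to act on further kinases such as those of the CLK and DYRK families, which phosphorylate splicing factors. Embryonic stem cells are held in self-renewal by a network of transcription factors around Oct4 (Pou5f1), Sox2 and Nanog. LIF feeds into it through Klf4 and Tbx3, while Nodal and FGF signals move the cells towards later embryonic states. A change that begins at the low dose, one that needs the high dose and one that is found at the low dose only cannot be told from each other in a comparison of 2 groups. The 3 dose levels were therefore fitted together.

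The arrays fell apart by dose. Between 9469 and 9780 probe sets lay over background on each array and the array medians ran from 9.72 to 9.74. The values were quantile normalized before deposit, so near-equal medians follow from that step and say nothing about array quality. The first principal component (49.5% of the variance) placed the 3 arrays at 1.0 µM between 13.6 and 16.4 and the other 6 between -9.58 and -4.35. The second (20.3%) separated the DMSO arrays (3.24 to 12.4) from the arrays at 0.1 µM (-8.28 to -6.19). The median standard deviation within a group was 0.0859 in DMSO cells, 0.0424 at 0.1 µM and 0.0753 at 1.0 µM, so the low-dose arrays were the most alike. Of 9 stem cell markers 8 were measured, of which 3 followed a shape described below (Klf4 rose and Tdgf1 and Utf1 fell at 1.0 µM alone), and Esrrb was called lower only between the doses. Pou5f1, Sox2, Nanog and Zfp42 were called in none of the 3 contrasts (at 1.0 µM against DMSO, adjusted p = 0.767, 0.142, 0.883 and 0.0867, limma). Markers of other cell types were sparse among the probe sets with 1 symbol: 1 of 7 fibroblast, 2 of 7 macrophage, 1 of 7 trophectoderm, 1 of 6 primitive endoderm, 0 of 5 mesoderm and 1 of 5 neural markers were tested. The log2 of the summed signal of the 2 macrophage markers, Cd68 and Laptm5, was 10.78 to 11 in DMSO cells, 11.46 to 11.59 at 0.1 µM and 11.64 to 11.65 at 1.0 µM, with the defining macrophage genes Csf1r, Adgre1 and Ptprc not among the tested probe sets with 1 symbol. The 1 fibroblast marker tested, Thy1, measured 7.92 to 8.27 in DMSO cells, 8.62 to 8.75 at 0.1 µM and 8.21 to 8.61 at 1.0 µM. Its means in DMSO cells (8.15) and at 1.0 µM (8.43) lay under background. The collagen markers Col1a1, Col1a2 and Col3a1 were not among the tested probe sets with 1 symbol. In bulk RNA, fewer cells of a type and less RNA per cell cannot be told apart.

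Each probe set was sorted by which of 3 contrasts of 1 joint limma fit passed an adjusted p of 0.05: 0.1 µM against DMSO, 1.0 µM against DMSO, and 1.0 µM against 0.1 µM. Over all 9911 tested probe sets, 462 (4.66%) were higher and 155 (1.56%) lower at 0.1 µM than in DMSO cells. At 1.0 µM, 1326 (13.4%) were higher and 1418 (14.3%) lower than in DMSO cells. Between the doses, 1223 (12.3%) were higher and 1724 (17.4%) lower at 1.0 µM than at 0.1 µM. These shares are the background for every count that follows. Of the 8414 sorted probe sets, 2976 (35.4%) differed over the 3 groups by the moderated F test and 1795 (21.3%) followed 1 of 8 shapes. A stepwise rise or fall (each step called) was found for 28 and 11 probe sets, a rise or fall that was called at 0.1 µM and held at 1.0 µM for 148 and 51, a peak or trough at 0.1 µM for 207 and 42, and a rise or fall at 1.0 µM alone for 534 and 774. Change at 1.0 µM alone was thus the most common shape (1308 probe sets, 15.5%), and peaks and troughs (249, 2.96%) were about as many as monotone changes (176 rises and 62 falls). A probe set with a group under the background of 8.46 passed the filter through its brighter arrays, so the size of its change is read with little signal, and such genes are marked below. The shapes follow from the calls, so the calls that made them are given as a description with no further test.

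**Figure D1:**
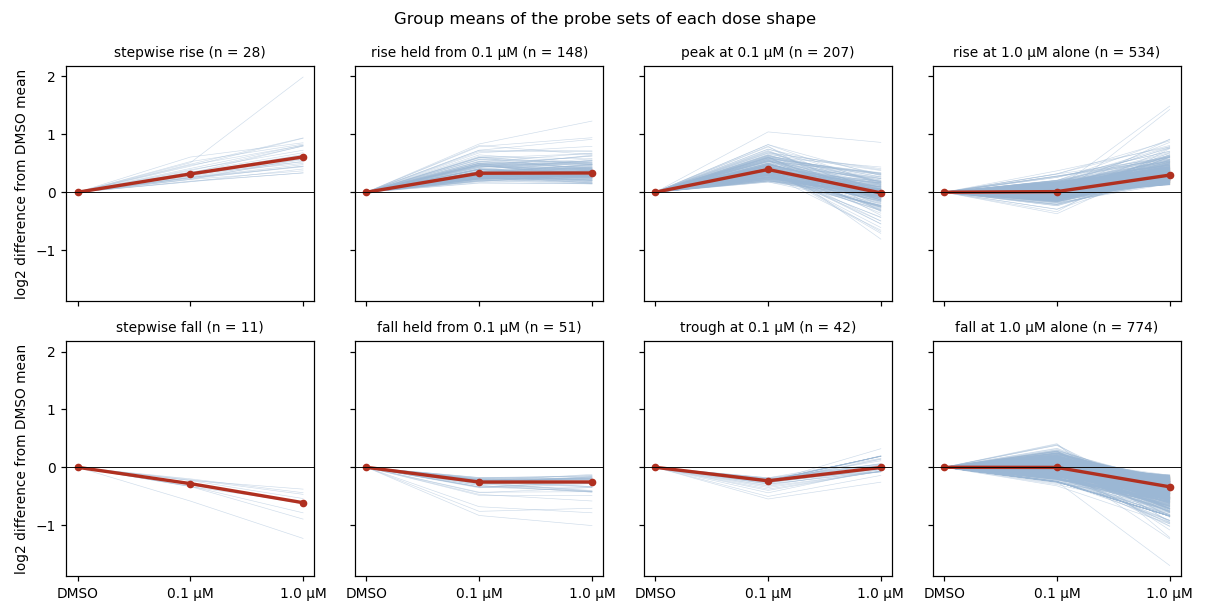
Group means of each probe set, as log2 difference from its DMSO mean (vertical axis), at the 3 dose levels (horizontal axis), in 1 panel per shape. Thin lines are probe sets and the thick line with points is their median, which ends at 0.61 for stepwise rises, -0.61 for stepwise falls, -0.01 for peaks and -0.34 for falls at 1.0 µM alone.

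The remaining probe sets were not resolved into a shape. For 694 probe sets only 1.0 µM against DMSO was called (385 higher, 309 lower), and in 664 of them (95.7%) the 0.1 µM mean lay between the ends. For 878 only 1.0 µM against 0.1 µM was called, with the DMSO mean between the doses in 438 of the 462 that were lower at 1.0 µM and in 407 of the 416 that were higher. These places of the middle mean follow largely from the calls that define the classes and are no separate result. Another 76 were called only at 0.1 µM against DMSO, 80 only by the F test, and 4891 (58.1%) by nothing. The level at 0.1 µM lay above the midpoint of DMSO and 1.0 µM for 930 probe sets and below it for 411 (curvature contrast of the same fit). The shapes themselves have sharp edges: Tubb2a, a beta-tubulin gene, was the peak gene nearest the threshold (weakest adjusted p 0.0497, 0.36 at 0.1 µM), and Cryl1, a crystallin-like gene of sugar metabolism, was among those just outside (adjusted p 0.0514, 0.28 at 0.1 µM).

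The shapes that include a call at 0.1 µM depended on each of the 3 low-dose arrays. Leaving out 1 array at 0.1 µM left 62 to 75 peaks, 44 to 61 held rises, 5 to 9 held falls, 3 to 5 stepwise rises, 0 or 1 stepwise fall and 2 to 8 troughs, whereas leaving out 1 DMSO array left 170 to 215 peaks. Leaving out replicate 2 at 1.0 µM reduced the held falls to 20, the troughs to 25, the stepwise rises to 18 and the stepwise falls to 7. Without replicate 1 or replicate 3 at 0.1 µM the rises at 1.0 µM alone numbered 327 and 336, and without replicate 1 or replicate 2 at 1.0 µM they numbered 341 and 342. The falls at 1.0 µM alone stayed between 566 and 821 in every case. Without replicate 3 at 1.0 µM the stepwise falls numbered 20 and the troughs 68, without replicate 1 at 1.0 µM the stepwise falls numbered 17, and without DMSO replicate 2 the troughs numbered 25. The F test called 1968 probe sets without replicate 1 at 0.1 µM. A probe set kept its shape in all 9 such fits in 3 of 28 stepwise rises, 0 of 11 stepwise falls, 24 of 148 held rises, 3 of 51 held falls, 51 of 207 peaks, 1 of 42 troughs, 224 of 534 rises and 404 of 774 falls at 1.0 µM alone. Genes described below as kept belong to these.

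**Figure D2:**
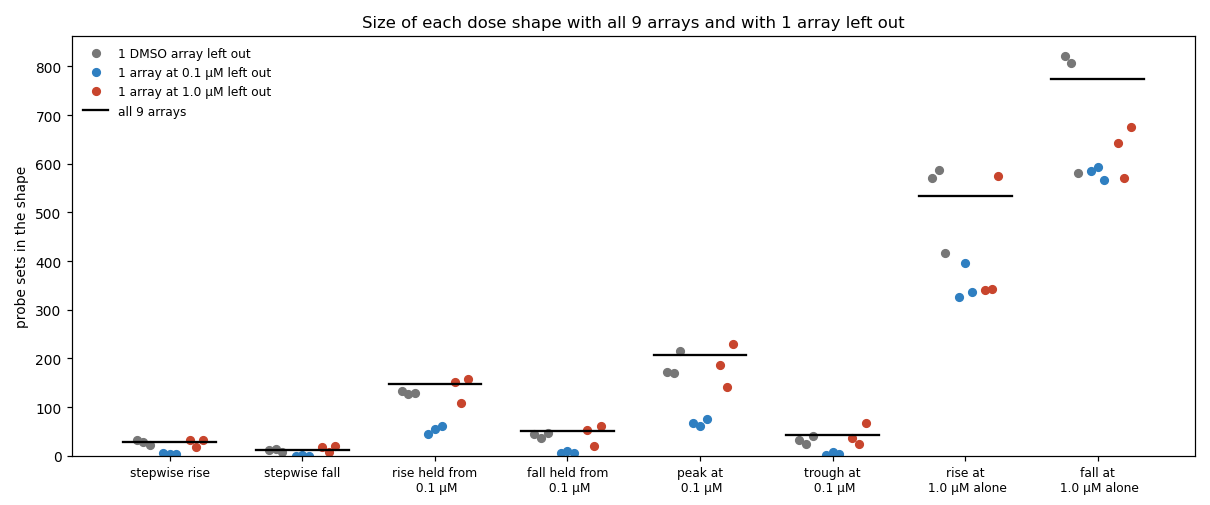
Number of probe sets in each shape (vertical axis, from 0) with all 9 arrays (black line) and with 1 array left out (points, coloured by the group of that array). The 3 points for the arrays at 0.1 µM lie far below the line for every shape that needs a call at 0.1 µM, for example at 62 to 75 against 207 for peaks.

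The order of the group levels was also read in arrays that had not been used for sorting. When the 3 arrays of replicate 1 were set aside and the shapes were sorted on the other 6, 42 of 44 peaks (95.5%) had their highest value at 0.1 µM in the arrays set aside, against 30.6% of all sorted probe sets. With replicate 3 set aside it was 41 of 43 (95.3%) against 29.5%. With replicate 2 set aside no peak was sorted. Held rises lay above DMSO at both doses in 27 of 29 and 28 of 29 cases with replicates 1 and 3 set aside, against 29.4% and 28.8% of all. Rises at 1.0 µM alone had the highest value at 1.0 µM in 189 of 192, 204 of 216 and 208 of 211 cases, against 38.7%, 34.6% and 34.8% of all. Falls at 1.0 µM alone had the lowest value there in 506 of 526, 385 of 408 and 357 of 365, against 32.3%, 35.8% and 43.5% of all. Held falls were sorted only with replicate 1 set aside, where 4 of 5 lay below DMSO at both doses (28.9% of all). Stepwise falls and troughs had no member in any of these 6-array fits, so their order was not read in this way. The arrays share 1 normalization, and replicates of a group are not ordered. The background filter used all 9 arrays, those set aside included. For a probe set that passed it only through its brightest group, the order in the arrays set aside was partly fixed in advance. Of the 207 peaks, 48 had a group mean under background, as had 36 of the 148 held rises and 2 of the 51 held falls. The same held for 52 of the 534 rises and 139 of the 774 falls at 1.0 µM alone.

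Among the 28 stepwise rises the median gene had reached 50.9% of its 1.0 µM change at 0.1 µM. The 3 genes that kept the shape are Ppp2r2c, which encodes a regulatory subunit of protein phosphatase 2A, Tbc1d8, a Rab GTPase-activating protein, and Slc25a20, the carrier that brings acylcarnitines into mitochondria. Ppp2r2c (probe set 17436944) measured 7.92, 7.999 and 7.92 in DMSO cells, 8.35, 8.37 and 8.24 at 0.1 µM and 8.73, 8.81 and 8.69 at 1.0 µM. No DMSO value reached a 0.1 µM value and no 0.1 µM value reached a 1.0 µM value. The fitted steps were 0.37 ± 0.05 (SE, adjusted p = 0.00585) for 0.1 µM against DMSO and 0.42 ± 0.05 (SE, adjusted p = 0.000632) for 1.0 µM against 0.1 µM in the limma fit. All its DMSO and 0.1 µM values lay under background, so only the level at 1.0 µM was measured above it. Slc25a20 (17521875) measured 9.59, 9.52 and 9.54 in DMSO cells, 9.85, 9.87 and 9.86 at 0.1 µM and 10.24, 10.20 and 10.13 at 1.0 µM. The 3 low-dose arrays lay together midway, and its steps were 0.31 and 0.33. Tbc1d8 (17222527) rose by 0.47 at the first step and by a further 0.34 at the second.

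The widest stepwise rise was that of Tdpoz3, a member of a gene cluster expressed in the 2-cell embryo. Tdpoz3 (17400011) measured 6.98, 7.20 and 7.36 in DMSO cells, 7.72, 7.68 and 7.66 at 0.1 µM and 9.11, 9.10 and 9.29 at 1.0 µM. Most of the change came at the second step (1.48, adjusted p = 3.63e-05), and the DMSO and 0.1 µM levels lay under the background of 8.46. Its first step (0.51, adjusted p = 0.0138) was lost without any 1 of the 3 arrays at 0.1 µM (adjusted p up to 0.0613, limma). Perp, a p53 target that encodes a desmosome-associated membrane protein, rose by 0.45 at 0.1 µM and stood 0.93 above DMSO at 1.0 µM. Npnt, an integrin ligand of the basement membrane, rose by 0.41 and 0.81. Tppp3, which encodes a tubulin polymerization-promoting protein, had most of its rise at the first step (0.61 of 0.85). Ddx4, the germline RNA helicase Vasa, rose evenly (0.29 of 0.58). A step of each of these 4 was lost without some low-dose arrays (adjusted p of the step up to 0.0713 for Perp, all 3 arrays; 0.0706 for Npnt, replicates 2 and 3; 0.0764 for Tppp3, replicates 2 and 3 and replicate 2 at 1.0 µM; 0.0962 for Ddx4, all 3 arrays).

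Stepwise falls were few (11 probe sets). Lefty1, a Nodal antagonist and itself a target of Nodal signalling, fell the most. Lefty1 (17220214) measured 11.27, 11.57 and 11.52 in DMSO cells, 10.74, 11.09 and 10.77 at 0.1 µM and 10.07, 10.28 and 10.31 at 1.0 µM. The 3 groups did not overlap, and the level fell by 0.58 at 0.1 µM and by 1.23 at 1.0 µM relative to DMSO cells (SE 0.11, adjusted p = 0.0184 and 0.000154, limma). The first call was lost without DMSO replicate 2, or without replicate 1 or 3 at 0.1 µM (adjusted p up to 0.0841). The other falls named here were smaller. Dnmt3b, the de novo DNA methyltransferase that is high in the epiblast, measured 12.02, 11.96 and 11.85 in DMSO cells, 11.63, 11.69 and 11.66 at 0.1 µM and 11.39, 11.36 and 11.26 at 1.0 µM. Zic5, a zinc finger factor of the early neural plate, fell by 0.31 and 0.62. Nab2, which encodes a corepressor of the EGR factors, fell by 0.23 and 0.54. For Dnmt3b, Zic5 and Nab2 the call at 0.1 µM was lost without each single array at 0.1 µM, and for Dnmt3b also without DMSO replicate 1 or 2 (adjusted p up to 0.101). Their call at 1.0 µM against DMSO held in all 9 fits. Of 16 tested formative and epiblast factors, 2 were stepwise falls (12.5%, against 0.122% of all tested genes). At 1.0 µM alone 1 rose and 1 fell (6.25% each, against 6.29% and 8.97%). The median over the 16 was -0.04 at 0.1 µM and -0.18 at 1.0 µM, against 0.00 at either dose over all tested genes.

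Genes that rose at 0.1 µM and stayed at that level included surface receptors, detoxifying enzymes and lysosomal proteins. Glp1r, the receptor of glucagon-like peptide 1, was the clearest. Glp1r (17335726) measured 8.99, 8.85 and 9.04 in DMSO cells, 9.68, 9.58 and 9.67 at 0.1 µM and 9.65, 9.85 and 9.76 at 1.0 µM. Every treated value lay above every DMSO value and the doses overlapped. It rose by 0.68 ± 0.07 (SE, adjusted p = 0.00119) at 0.1 µM and by 0.79 ± 0.07 (SE, adjusted p = 0.00012) at 1.0 µM, with 0.11 ± 0.07 (SE, adjusted p = 0.231) between the doses. Rnf128, an E3 ubiquitin ligase known from T cell anergy, measured 8.19, 8.20 and 8.29 in DMSO cells, 8.77, 8.91 and 8.85 at 0.1 µM and 8.76, 8.86 and 8.77 at 1.0 µM, with the same plateau. Ttll6, a tubulin polyglutamylase, rose by 0.73 and 0.71. Emp3, a membrane protein of the epithelial membrane protein family, rose by 0.81 and 0.65, and Retsat, a retinol saturase, by 0.65 and 0.50. Ephx1, microsomal epoxide hydrolase, rose by 0.57 and 0.49, and Anxa3, a calcium-dependent phospholipid-binding annexin, by 0.60 and 0.49. All of these kept the shape without each array. The DMSO means of Rnf128, Emp3 and Retsat lay under background.

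Among 44 tested lysosome genes, 4 were held rises and 2 stepwise rises, against 1.81% and 0.342% of all tested genes. Another 3 fell at 1.0 µM alone, and the 9 genes with a shape (20.5%) were as frequent as over all tested genes (21%). At 1.0 µM against DMSO 7 lysosome genes were called higher and 5 lower. Cd68, a lysosomal membrane glycoprotein that is also a macrophage marker, measured 10.37, 10.10 and 10.43 in DMSO cells, 10.99, 10.99 and 11.09 at 0.1 µM and 11.18, 11.20 and 11.26 at 1.0 µM. Its treated values lay above every DMSO value, with a rise of 0.72 at 0.1 µM and 0.91 at 1.0 µM. Without DMSO replicate 2 a further step between the doses was called, which made it a stepwise rise. Fuca1, lysosomal fucosidase, rose by 0.25 and 0.38, its call at 0.1 µM being lost without any 1 array at 0.1 µM (adjusted p up to 0.0722). Man2b1, lysosomal mannosidase, rose stepwise by 0.32 and 0.50, its second step being lost without any 1 array at 0.1 µM or replicate 2 or 3 at 1.0 µM (up to 0.0943). The 3 falls at 1.0 µM alone were Scarb2, a lysosomal membrane receptor (-0.28), Ctsf, a cathepsin (-0.32), and Atp6v0d1, a proton pump subunit (-0.19). Ctsf lay under background in DMSO cells and at 1.0 µM by its means. Scarb2 became a peak without DMSO replicate 2, and Ctsf and Atp6v0d1 were chosen after their values were seen. The summed macrophage marker level given above was higher at both doses as well, and its part in the result was not tested. Cd68 and Laptm5 are members of the lysosome list too. The 0.1 µM mean was the highest of the 3 means in 28 of the 44 lysosome genes (63.6%), against 32.5% of all tested genes.

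Held rises of 3 further groups were found with 1 or a few members each. Of 13 tested germline and piRNA genes, 3 were held rises (23.1% against 1.81% of all). Prss42, a testis serine protease among them, measured 7.79, 7.95 and 8.23 in DMSO cells, 8.85, 8.81 and 8.82 at 0.1 µM and 8.81, 9.22 and 9.63 at 1.0 µM. Prss42 rose by 0.83 and 1.23, with a wide spread at 1.0 µM. Its call at 0.1 µM was lost without DMSO replicate 1 or 2, any array at 0.1 µM or replicate 2 at 1.0 µM (adjusted p up to 0.0984). Prdm14, a germ cell and pluripotency regulator, rose by 0.31 and 0.45, a call lost at 0.1 µM without DMSO replicate 2 or any 1 array at 0.1 µM (adjusted p up to 0.101). Atf3, a stress-induced transcription factor, rose by 0.40 and 0.55, and its call at 0.1 µM was lost without replicate 1 or 2 at 0.1 µM (up to 0.0812). Cbr3, a carbonyl reductase, rose by 0.70 at either dose, its call at 0.1 µM being lost without DMSO replicate 2 or 3 or any array at 0.1 µM (adjusted p up to 0.0999). The DMSO means of Prss42, Atf3 and Cbr3 lay under background.

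Held falls included small RNA genes of 1 imprinted region. The Meg3 to Mirg region of chromosome 12 (RefSeq, GRCm38.p6, 109540996 to 109749458) is expressed from the maternal chromosome as long non-coding RNAs that host snoRNAs and miRNAs. It has 86 annotated genes, of which 9 were tested with a probe set of their own. Of these, 8 had lower means at 0.1 µM and at 1.0 µM than in DMSO cells. For comparison, 28.9%, 29.1% and 33.1% of all sorted probe sets lay below DMSO at both doses on the arrays of replicates 1, 2 and 3. Several of the 9 lie within 1 host transcript, Rian, so they are not separate readings. Mir377 (17278882, hairpin at 109740510 to 109740577) measured 9.07, 8.54 and 8.86 in DMSO cells, 7.90, 8.01 and 8.06 at 0.1 µM and 7.79, 7.70 and 7.96 at 1.0 µM. The treated values lay below every DMSO value and the doses overlapped. Mir377 fell by 0.83 at 0.1 µM and by 1.01 at 1.0 µM (SE 0.12, adjusted p = 0.00616 and 0.000423, limma). All its treated values lay under background, so only the DMSO level was measured above it. The snoRNA gene AF357355 fell by 0.68 and 0.79, and both kept the shape without every array. Mir329 measured 9.90, 9.25 and 9.65 in DMSO cells, 8.80, 8.87 and 8.86 at 0.1 µM and 8.84, 8.75 and 9.10 at 1.0 µM. Its call at 0.1 µM was lost without any 1 array at 0.1 µM (adjusted p up to 0.0784).

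The host transcript and a second snoRNA gene were lower with other call patterns. Rian, the long non-coding RNA in which AF357355 lies, measured 11.41, 11.06 and 11.25 in DMSO cells, 10.75, 10.79 and 10.79 at 0.1 µM and 10.22, 10.36 and 10.72 at 1.0 µM. It fell by 0.81 at 1.0 µM (adjusted p = 0.00159), while its -0.46 at 0.1 µM missed the threshold (adjusted p = 0.0576). DQ267102, another snoRNA gene within Rian, was a fall at 1.0 µM alone (-0.79). AF357425, a snoRNA gene that also lies within Rian, was called in no contrast (-0.26 and -0.22). Mir673, which lies next to Meg3, was called in no contrast (-0.20 and 0.03). These small RNA genes and Rian were chosen after their values were seen, except AF357355. A probe set in a hairpin or snoRNA reads the longer transcript around it as well as the processed RNA. The mature miRNAs made from the 2 hairpins whose fall was held are shown to identify them (RefSeq, GRCm38.p6, chromosome 12, plus strand, 5′ to 3′, seed bases 2 to 8 in capitals). The arms on the 5′ side share the first 6 of their 7 seed bases and the arms on the 3′ side do not have the same seed.
mmu-miR-377-5p: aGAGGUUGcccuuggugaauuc
mmu-miR-377-3p: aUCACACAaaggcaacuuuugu
mmu-miR-329-5p: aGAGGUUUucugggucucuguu
mmu-miR-329-3p: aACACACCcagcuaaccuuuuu

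The other held falls included a growth factor signalling gene, a secreted peptide and mitotic genes. Etv1, an ETS factor induced by FGF and ERK signalling, measured 10.14, 10.11 and 9.99 in DMSO cells, 9.48, 9.66 and 9.64 at 0.1 µM and 9.67, 9.54 and 9.57 at 1.0 µM. It fell by 0.49 at either dose with no overlap with DMSO, and it kept the shape without each array. Trh, the precursor of thyrotropin-releasing hormone, measured 12.19, 12.18 and 12.06 in DMSO cells, 11.65, 11.72 and 11.65 at 0.1 µM and 11.72, 11.51 and 11.45 at 1.0 µM. Without replicate 1 at 1.0 µM it became a stepwise fall, while the fall at each dose was called in all 9 fits. Of 53 tested mitotic genes, those of the chromosomal passenger complex included, 4 were held falls (7.55% against 0.586% of all tested genes): Aspm, a spindle pole protein (-0.25 and -0.26), Plk1, the polo-like kinase (-0.26 and -0.16), and the kinesins Cenpe (-0.22 and -0.20) and Kif11 (-0.18 and -0.19). Cenpe and Kif11 were chosen after their values were seen. None of the 4 kept the shape. The call at 0.1 µM was lost without replicate 1 or 3 at 0.1 µM for Aspm (adjusted p up to 0.067) and without replicate 1 or 2 for Plk1 (up to 0.0692). It was lost without any 1 array at 0.1 µM or DMSO replicate 2 or 3 for Cenpe (up to 0.129) and Kif11 (up to 0.157, here also replicate 2 at 1.0 µM). The call at 1.0 µM was lost without DMSO replicate 3 for Plk1 (up to 0.0898) and without replicate 2 at 1.0 µM for Plk1 and Cenpe (0.0517). Aurkb, the kinase of the passenger complex, was called in no contrast (-0.08 and -0.04). The 0.1 µM mean was the lowest of the 3 in 30 of the 53 genes (56.6%), against 30.5% of all. Tra2a, a splicing regulator, fell by 0.43 and 0.42, with the call at 0.1 µM lost without any 1 array at 0.1 µM (adjusted p up to 0.076).

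**Figure D3:**
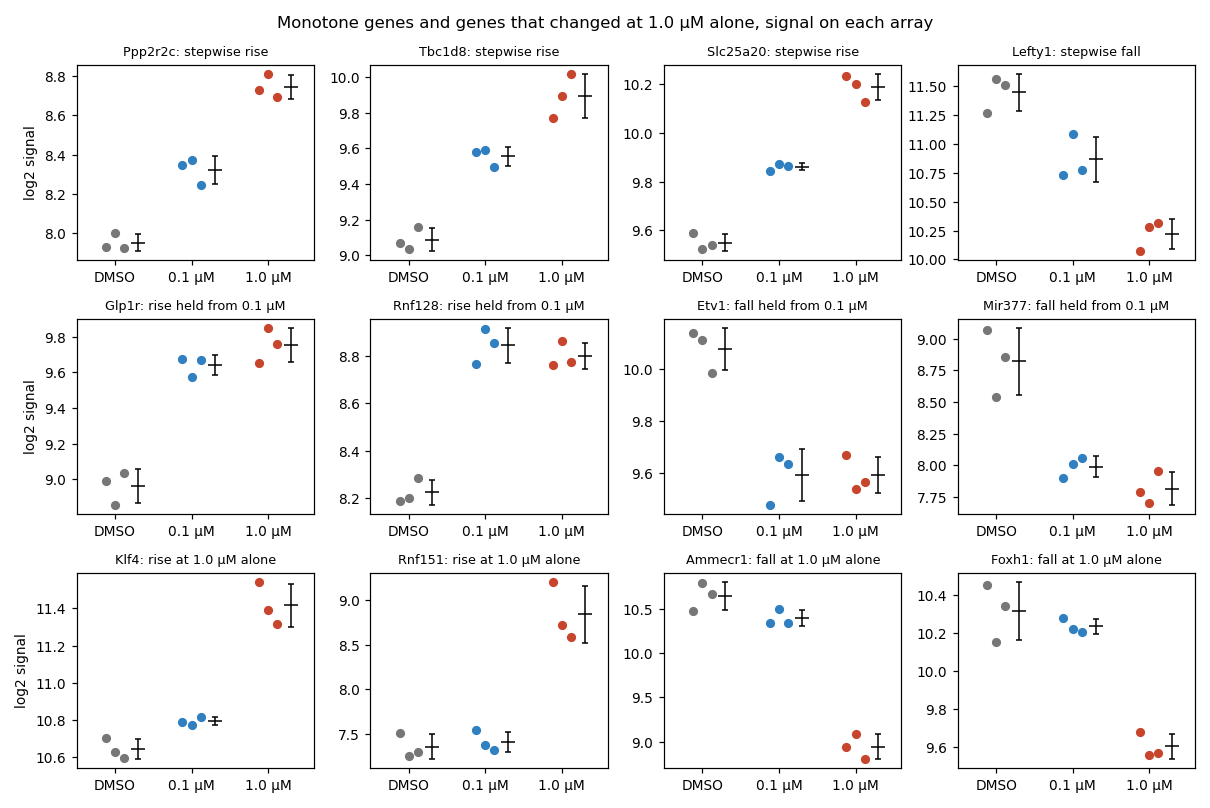
Log2 signal (vertical axes, not from 0) on each array for 12 genes at the 3 dose levels (horizontal axes). Points are single arrays, and the dash with bars is the mean ± SD of 3 arrays. Slc25a20 climbs at each dose, Glp1r and Etv1 change at 0.1 µM and stay, and Klf4 and Ammecr1 move at 1.0 µM.

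Peaks at 0.1 µM were the most numerous of the shapes that begin at the low dose, and 149 of the 207 were back at a level not called different from DMSO at 1.0 µM. Another 34 peaks were lower at 1.0 µM than in DMSO cells and 24 were still higher. Among the peaks that kept the shape, Fam183b had the largest smaller step, the lesser of its rise at 0.1 µM and its drop to 1.0 µM. Fam183b (17263193) measured 7.66, 7.88 and 7.88 in DMSO cells, 8.57, 8.62 and 8.58 at 0.1 µM and 7.69, 7.88 and 7.79 at 1.0 µM. The low-dose values stood alone and the other groups lay under background. It rose by 0.78 ± 0.07 (SE, adjusted p = 0.00102) at 0.1 µM and differed by -0.80 ± 0.07 (SE, adjusted p = 0.000146) between 1.0 µM and 0.1 µM. Cth, cystathionine gamma-lyase of the transsulfuration pathway, measured 10.47, 10.38 and 10.38 in DMSO cells, 10.96, 11.09 and 11.10 at 0.1 µM and 10.52, 10.40 and 10.41 at 1.0 µM. The 1.0 µM and DMSO values lay in 1 narrow band.

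Other kept peaks encode enzymes and surface proteins. Necab1, a neuronal calcium-binding protein gene, rose by 0.72 at 0.1 µM and stood at -0.06 relative to DMSO at 1.0 µM. Pdgfc, a platelet-derived growth factor, rose by 0.82 and stood at 0.13, and Ceacam1, a cell adhesion molecule, rose by 0.63 and stood at -0.06. Dpp4, a cell surface dipeptidyl peptidase, and Car12, a membrane carbonic anhydrase, rose by 0.60 and 0.55. Car12 lay under background in DMSO cells and at 1.0 µM, and Dpp4 at 1.0 µM, by their means. Tcl1, an AKT coactivator of the pluripotency network, measured 10.50, 10.73 and 10.78 in DMSO cells, 11.22, 11.17 and 11.27 at 0.1 µM and 10.52, 10.47 and 10.55 at 1.0 µM. Its low-dose values stood above all others. Plet1, a trophectoderm and placenta marker, measured 10.48, 10.71 and 10.83 in DMSO cells, 11.46, 11.43 and 11.37 at 0.1 µM and 10.62, 10.88 and 11.04 at 1.0 µM. Again the low-dose values were alone at the top, and the other 6 defining trophectoderm markers had no tested probe set with 1 symbol. Dusp6, the ERK phosphatase that is itself induced by ERK, rose by 0.27 at 0.1 µM and kept the shape. Of the 14 tested Dusp genes 3 were peaks (21.4%, against 2.5% of all tested genes) and 1 was a trough (7.14%, against 0.427%). Another 2 fell at 1.0 µM alone (14.3%, against 8.97%). The other 2 peaks, Dusp1 (0.33) and Dusp9 (0.30), lost the call at 0.1 µM without 6 and 4 of the 9 arrays in turn (adjusted p up to 0.109 and 0.115).

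The strongest peak at 0.1 µM by value, AU015836, a non-coding RNA gene of the X chromosome, was nearly a plateau. AU015836 measured 8.75, 8.73 and 8.79 in DMSO cells, 9.75, 9.90 and 9.74 at 0.1 µM and 9.59, 9.64 and 9.63 at 1.0 µM. It rose by 1.04 ± 0.05 (SE, adjusted p = 3.99e-05) at 0.1 µM and by 0.86 ± 0.05 (SE, adjusted p = 3.62e-05) at 1.0 µM. The drop between the doses (-0.18, adjusted p = 0.0286) was lost without replicate 1 or 2 of either dose (adjusted p up to 0.0996), which left a held rise. Ccnd2, cyclin D2, whose DMSO mean lay just under background, had the same form, with 0.68 at 0.1 µM, 0.41 at 1.0 µM and a drop of 0.27 that was lost without DMSO replicate 2 or any array of either dose (adjusted p up to 0.128).

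Of the 43 gene lists and families examined, sterol synthesis genes had the most peaks by number, while by share germline and piRNA genes had slightly more (3 of 13, 23.1%). Cells make cholesterol from acetyl-CoA through the mevalonate pathway, and the factor SREBP2, encoded by Srebf2, drives most of its enzymes when sterol is low. Insig1 holds that factor back in the endoplasmic reticulum. Of 27 tested sterol genes, 6 were peaks (22.2%, against 2.5% of all tested genes), 7 were called higher at 0.1 µM and none lower. Srebf2 measured 10.78, 10.93 and 10.98 in DMSO cells, 11.22, 11.22 and 11.24 at 0.1 µM and 10.85, 10.89 and 11.03 at 1.0 µM. The 3 low-dose values were nearly equal and lay above every other value, with 0.33 ± 0.06 (SE, adjusted p = 0.0191) at 0.1 µM and 0.03 at 1.0 µM relative to DMSO. Tm7sf2, a sterol C14 reductase, measured 8.52, 8.54 and 8.60 in DMSO cells, 8.97, 8.96 and 8.82 at 0.1 µM and 8.51, 8.66 and 8.68 at 1.0 µM. Its DMSO and 1.0 µM values overlapped. Msmo1, the methylsterol monooxygenase, measured 8.995, 9.03 and 9.21 in DMSO cells, 9.57, 9.56 and 9.50 at 0.1 µM and 8.92, 9.26 and 9.31 at 1.0 µM. The 1.0 µM group spread widely over the DMSO values.

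Among the sterol genes, all but Tm7sf2, Sqle, Scap and Nsdhl were chosen after their values were seen. The other 3 sterol peaks were Insig1 (0.54 at 0.1 µM and 0.04 at 1.0 µM), Fdft1, squalene synthase (0.27 and -0.08), and Dhcr7, the last reductase of the pathway (0.20 and -0.02). No sterol peak kept the shape without every array. Tm7sf2 lost the call at 0.1 µM without replicate 1 or 2 at 0.1 µM (adjusted p up to 0.0599), Srebf2 without any 1 array at 0.1 µM (up to 0.0779) and Msmo1 also without DMSO replicate 1 or 2 (up to 0.0984). Insig1 lost it without any array of DMSO or 0.1 µM or replicate 2 at 1.0 µM (up to 0.163). Fdft1 lost it without DMSO replicate 1 or 2, any array at 0.1 µM or replicate 2 at 1.0 µM (up to 0.13). Dhcr7 lost it without any array of DMSO or 0.1 µM or replicate 2 at 1.0 µM (up to 0.151). Scd1, the fatty acid desaturase, was instead a held rise (0.56 and 0.51), lost at 0.1 µM without any 1 array at 0.1 µM or replicate 2 at 1.0 µM (up to 0.122). Of the other members with a shape, Sqle, squalene epoxidase, and Scap, the SREBP escort protein, rose at 1.0 µM alone (0.44 and 0.45). Nsdhl, a later enzyme of the pathway, fell at 1.0 µM alone (-0.38).

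The promoters of these peak genes were read for the motifs that SREBP factors and their partners NF-Y and SP1 bind. RefSeq windows (GRCm38.p6, 250 bases before to 50 after the gene start) were found for 5 of the 6 genes and 22 of the 27 listed genes. A gene was counted if any of its windows held the motif. A CCAAT box (CCAAT on either strand) stood in all 5 and in 18 of 22 (81.8%), against 43.6% of the promoters of tested genes and 41.1% of all promoters in the table. The CCAAT box was also frequent in other lists: 7 of 7 2-cell-like genes, 7 of 10 germline and piRNA genes and 25 of 40 DNA replication genes. In hypoxia and glycolysis genes it stood in 12 of 28 (42.9%). Its frequency is thus not particular to sterol genes. A GC box (GGGCGG on either strand) stood in all 5 and in 19 of 22 (86.4%), against 73.2% and 38.2%. The SREBP site TCACNCCAC stood in none of the 5 and in 1 of the 22, against 1.34% and 1.44%, which says only that these letters are not in these windows. The windows of 3 peak genes are printed to show where the boxes lie, with CCAAT boxes and GC boxes of either strand in capitals, 5′ to 3′ on the strand of the gene. In Srebf2 (chr15:82147019-82147318, plus strand) a reversed CCAAT box starts 135 bases before the gene start, in Tm7sf2 (chr19:6067801-6068100, minus strand) 47 bases before it, and in Msmo1 (chr8:64733529-64733828, minus strand) 3 forward boxes start 160, 96 and 55 bases before it. A motif match is a description and not a bound site. For most of the 8 shapes fewer than 80% of the genes had a promoter window, so shares by shape are not read.
Srebf2: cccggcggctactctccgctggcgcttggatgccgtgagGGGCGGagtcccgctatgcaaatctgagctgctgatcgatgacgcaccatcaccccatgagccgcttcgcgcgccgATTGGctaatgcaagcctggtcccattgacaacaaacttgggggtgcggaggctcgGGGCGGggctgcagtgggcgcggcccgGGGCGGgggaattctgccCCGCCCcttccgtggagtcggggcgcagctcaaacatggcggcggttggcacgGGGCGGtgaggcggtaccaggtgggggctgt
Tm7sf2: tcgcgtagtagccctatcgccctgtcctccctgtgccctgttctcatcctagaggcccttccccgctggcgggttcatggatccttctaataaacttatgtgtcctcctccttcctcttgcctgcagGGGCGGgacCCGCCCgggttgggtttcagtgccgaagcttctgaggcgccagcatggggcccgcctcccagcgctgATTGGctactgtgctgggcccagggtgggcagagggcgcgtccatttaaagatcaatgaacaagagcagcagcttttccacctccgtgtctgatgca
Msmo1: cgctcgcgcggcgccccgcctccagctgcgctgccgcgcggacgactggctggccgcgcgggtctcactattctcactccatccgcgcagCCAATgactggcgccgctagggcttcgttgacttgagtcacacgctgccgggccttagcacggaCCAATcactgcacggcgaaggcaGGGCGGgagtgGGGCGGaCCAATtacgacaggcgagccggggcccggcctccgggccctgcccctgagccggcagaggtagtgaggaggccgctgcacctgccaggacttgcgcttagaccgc

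A set of 38 genes (44 probe sets) was called in opposite directions at the 2 doses against DMSO, 34 of them higher at 0.1 µM and lower at 1.0 µM. Liph, a phosphatidic acid-selective phospholipase, measured 8.503, 8.70 and 8.73 in DMSO cells, 9.12, 9.08 and 9.09 at 0.1 µM and 8.12, 8.16 and 8.16 at 1.0 µM. These were 3 levels with no overlap. It rose by 0.45 at 0.1 µM (adjusted p = 0.00442) and fell by 0.50 at 1.0 µM (adjusted p = 0.000461, limma). Derl3, a component of endoplasmic reticulum degradation, measured 8.33, 8.45 and 8.47 in DMSO cells, 8.94, 9.10 and 9.06 at 0.1 µM and 7.94, 7.96 and 8.15 at 1.0 µM. Its level at 1.0 µM was -1.02 relative to 0.1 µM. Ppp1r1a, an inhibitor of protein phosphatase 1, rose by 0.41 and fell by 0.55. Bcl6b, a transcriptional repressor used in spermatogonial stem cells, rose by 0.30 and fell by 0.26. Plaur, the urokinase receptor, rose by 0.45 and fell by 0.30, and Accsl rose by 0.35 and fell by 0.44. These 6 genes kept the opposite calls without each array, and the other 32 did not. At 1.0 µM the means of Liph, Derl3 and Accsl lay under background, as did the DMSO means of Derl3 and Accsl. The falls of Derl3 and Accsl were thus read between levels under background. The sizes of the falls of Liph, Derl3 and Accsl are uncertain.

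The reverse order, lower at 0.1 µM and higher at 1.0 µM, was found for 4 genes. Tfap2c, a transcription factor of naive pluripotency, trophectoderm and germ cells, measured 9.53, 9.48 and 9.58 in DMSO cells, 9.29, 9.24 and 9.32 at 0.1 µM and 9.89, 9.87 and 9.80 at 1.0 µM. It fell by 0.25 at 0.1 µM, a call lost without any 1 array at 0.1 µM (adjusted p up to 0.0783), and rose by 0.32 at 1.0 µM in all 9 fits. Cwc22, a spliceosome factor that also joins the exon junction complex, was read by 7 probe sets with nearly the same values. The first of them (17372564) measured 9.76, 9.86 and 9.78 in DMSO cells, 9.58, 9.53 and 9.58 at 0.1 µM and 9.98, 9.99 and 9.99 at 1.0 µM. These 7 were counted as 7 probe sets among the 42 troughs, which name 36 genes. Their call at 0.1 µM was lost without any 1 array at 0.1 µM (adjusted p up to 0.0781). Dusp11, an RNA phosphatase, fell by 0.28 and rose by 0.20, and Crnkl1, a spliceosome protein, fell by 0.18 and rose by 0.15. Dusp11 lost the call at 0.1 µM without any 1 array at 0.1 µM (adjusted p up to 0.126), and Crnkl1 without any DMSO or 0.1 µM array (up to 0.158), each also without replicate 2 at 1.0 µM. Their calls at 1.0 µM were lost without 8 and 3 of the 9 arrays in turn (up to 0.129 for Dusp11 and 0.0919 for Crnkl1).

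Troughs in general were shallow, with a median of -0.23 at 0.1 µM, and RNA-binding proteins were among them. Fgfr2, a receptor of fibroblast growth factors, was the 1 trough that kept its shape without each array. Fgfr2 (17496947) measured 9.10, 9.02 and 9.04 in DMSO cells, 8.47, 8.68 and 8.51 at 0.1 µM and 8.83, 8.99 and 8.93 at 1.0 µM. The low-dose values lay below all others. It changed by -0.50 ± 0.07 (SE, adjusted p = 0.00408) at 0.1 µM and stood at -0.14 relative to DMSO at 1.0 µM (adjusted p = 0.141). Hnrnpr, an hnRNP protein, measured 9.27, 9.38 and 9.27 in DMSO cells, 9.01, 9.12 and 9.02 at 0.1 µM and 9.44, 9.46 and 9.44 at 1.0 µM. Its call at 0.1 µM was lost without replicate 1 or 3 at 0.1 µM (adjusted p up to 0.086). Scaf8, which binds the tail of RNA polymerase II, fell by 0.31 at 0.1 µM and was -0.02 at 1.0 µM, and that call was lost without any 1 array at 0.1 µM (adjusted p up to 0.0601). Of 47 tested CLK and DYRK kinases and splicing factors, 2 were held falls (4.26%, against 0.586% of all tested genes) and 1 was a trough (2.13%, against 0.427%). In 30 of the 47 (63.8%) the mean was lowest at 0.1 µM, against 30.5% of all tested genes.

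**Figure D4:**
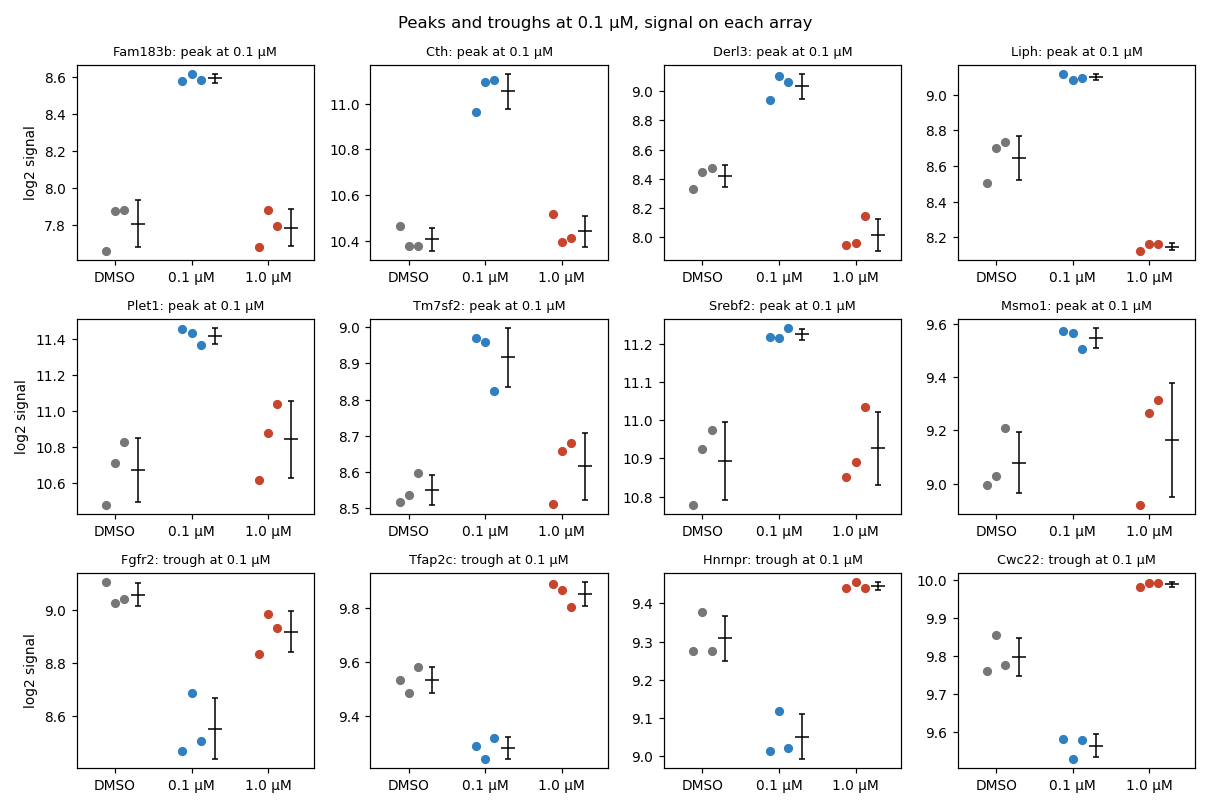
Log2 signal (vertical axes, not from 0) on each array for 8 peak genes and 4 trough genes at the 3 dose levels (horizontal axes). Points are single arrays, and the dash with bars is the mean ± SD of 3 arrays. Cth and Fam183b return to the DMSO level at 1.0 µM, Liph and Derl3 pass below it, and Tfap2c and Cwc22 pass above it.

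Genes that rose at 1.0 µM alone included early embryonic, self-renewal and DNA replication genes. Their median was 0.01 at 0.1 µM and 0.30 at 1.0 µM, and in 391 of the 534 the 95% interval of the 0.1 µM difference lay within a 1.2-fold change. Rnf151, a RING finger gene of round spermatids, measured 7.51, 7.25 and 7.29 in DMSO cells, 7.54, 7.38 and 7.32 at 0.1 µM and 9.21, 8.72 and 8.59 at 1.0 µM. All DMSO and low-dose values lay under background, so the size of the fitted change is uncertain. It rose by 1.49 ± 0.14 (SE, adjusted p = 0.000172) at 1.0 µM and differed by 0.06 at 0.1 µM (adjusted p = 0.837). Klf4, a pluripotency factor downstream of LIF, measured 10.70, 10.63 and 10.60 in DMSO cells, 10.79, 10.77 and 10.82 at 0.1 µM and 11.54, 11.39 and 11.31 at 1.0 µM. It rose by 0.77 ± 0.06 (SE, adjusted p = 0.000114, limma) at 1.0 µM. At 0.1 µM Klf4 differed by 0.15 (adjusted p = 0.161), which was not called although all 3 values lay above every DMSO value. Tbx3, which acts beside Klf4 in the LIF response, rose by 0.49. Of 23 tested pluripotency factors 3 rose (13%, against 6.29% of all tested genes) and 5 fell (21.7%, against 8.97%) at 1.0 µM alone. Among the falls Lin28a, an RNA-binding repressor of let-7 processing, changed by -0.60 (chosen after its value was seen) and Tdgf1, the Nodal coreceptor Cripto, by -0.24.

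Genes of the 2-cell embryo were the list with the largest share in this shape. Of 14 tested 2-cell-like genes, 7 rose at 1.0 µM alone (50%, against 6.29% of all tested genes) and Tdpoz3 rose stepwise. Another 18 of the 32 listed genes had no tested probe set with 1 symbol. In 3 of the 14 at least 1 group mean lay under background. For a gene that passed the filter only through its arrays at 1.0 µM, a rise there was partly fixed in advance, and so was the share. Tdpoz2 measured 7.66, 7.67 and 7.27 in DMSO cells, 7.05, 7.85 and 7.39 at 0.1 µM and 8.90, 9.19 and 8.80 at 1.0 µM. The 1.0 µM values lay above all others, and the other groups overlapped under background. Sp110, a nuclear body protein, was read by 2 probe sets that rose by 0.92 and 0.61, and Usp17le, a deubiquitinase gene, rose by 0.56. Several of these genes belong to multicopy families (Tdpoz, Usp17l, Gm4340), whose probe sets can share signal with near-identical copies. Of 17 tested histone genes 4 rose at 1.0 µM alone (23.5%, against 6.29%). Among them were H2bc1, the testis-type H2B (0.75), and H1f3, a linker histone (0.79), whose DMSO mean lay under background. H2bc18 fell at 1.0 µM alone (-0.56) and H1f10 was a held fall (-0.31 and -0.43), a call at 0.1 µM that was lost without 6 of the 9 arrays in turn (adjusted p up to 0.126). Against DMSO at 1.0 µM, 4 histone genes were called higher and 6 lower, with a median of -0.13 over the 17. Hist1h1e, Hist2h3b, Hist2h3c2 and Hist1h4h, which the study lists as raised, had no tested probe set with 1 symbol. They are not among the 17. The study also lists Hist4h4 as raised. A probe set that names only its RefSeq symbol, H4f16, was called lower here at 1.0 µM against DMSO (adjusted p = 0.0458, limma). That call was lost without 8 of the 9 arrays in turn (adjusted p up to 0.148). The study read these same 9 arrays, and which probe set it read for Hist4h4 was not established here. Probe sets that name several genes were not sorted, so the H4f16 call cannot be set against the study's value. H2bc18 was chosen after its values were seen.

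DNA replication genes rose at 1.0 µM alone in 12 of 49 tested (24.5%, against 6.29%) and fell in none. The rises were small. Rrm2, the regulatory subunit of ribonucleotide reductase, measured 11.33, 11.34 and 11.33 in DMSO cells, 11.46, 11.44 and 11.46 at 0.1 µM and 11.68, 11.68 and 11.58 at 1.0 µM. It rose by 0.31 ± 0.04 (SE, adjusted p = 0.000928) at 1.0 µM, with 0.12 at 0.1 µM (adjusted p = 0.121). Lig1, the ligase that seals Okazaki fragments, rose by 0.34, and Cdc6, an origin licensing factor, by 0.38. The helicase subunits Mcm4, Mcm5, Mcm6 and Mcm7, chosen after their values were seen, rose by 0.16 to 0.21. Mcm4 kept the shape without each array, while Mcm5, Mcm6 and Mcm7 lost a call without 6 or 7 of the 9 arrays in turn. Cdc25a, the phosphatase that activates CDK2, rose by 0.29. Nqo1, an NRF2 target quinone reductase, rose by 0.76, whereas Srxn1, sulfiredoxin and likewise an NRF2 target, fell by 0.68 at 1.0 µM alone.

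Genes that fell at 1.0 µM alone formed the largest shape, with a median of 0.00 at 0.1 µM and -0.34 at 1.0 µM, and 505 of the 774 had a 0.1 µM interval within a 1.2-fold change. Ammecr1, an X-linked gene of a protein family conserved to archaea, fell the most. Ammecr1 (17545078) measured 10.47, 10.79 and 10.67 in DMSO cells, 10.34, 10.49 and 10.34 at 0.1 µM and 8.94, 9.09 and 8.80 at 1.0 µM. It fell by 1.70 at 1.0 µM (SE 0.09, adjusted p = 3.06e-05) with -0.25 at 0.1 µM (adjusted p = 0.143, limma). Ephx2, soluble epoxide hydrolase, measured 9.33, 9.91 and 9.83 in DMSO cells, 9.75, 9.84 and 9.64 at 0.1 µM and 8.43, 8.43 and 8.51 at 1.0 µM. Ephx1, given above, rose at each dose. Tug1, a long non-coding RNA, measured 11.52, 11.60 and 11.68 in DMSO cells, 11.48, 11.48 and 11.60 at 0.1 µM and 10.56, 10.60 and 10.75 at 1.0 µM. The 1.0 µM values stood apart and the other groups overlapped. Dnajc30, a mitochondrial chaperone of the J family, fell by 0.98, and so did Slc12a2, the sodium-potassium-chloride cotransporter. Slc12a2 differed by -0.32 at 0.1 µM (adjusted p = 0.148) and became a stepwise fall without replicate 3 at 1.0 µM. It was chosen after its values were seen. The means of Ephx2 and Dnajc30 at 1.0 µM lay under background.

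Genes named Zfp, most of which encode zinc finger factors, made up part of this shape. Of 164 tested genes named Zfp, 28 fell at 1.0 µM alone (17.1%, against 8.97% of all tested genes) and 8 rose. Zfp493 fell by 1.02, and Zfp979 fell by 1.01 on 1 probe set and was not called on another (-0.20, adjusted p = 0.0673). In the Nodal pathway 3 of 17 tested genes fell at 1.0 µM alone (17.6%, against 8.97%). Foxh1, the factor that carries SMAD2 to its targets, measured 10.45, 10.15 and 10.34 in DMSO cells, 10.28, 10.22 and 10.21 at 0.1 µM and 9.68, 9.56 and 9.57 at 1.0 µM. Skil, a SMAD corepressor, fell by 0.38, and Tdgf1 is given above. Among receptors of Wnt ligands and R-spondins, Lgr4 fell by 0.53 (a stepwise fall without replicate 3 at 1.0 µM), Fzd7 by 0.41 and Fzd5 by 0.41, whose difference between the doses was lost without replicate 1 at 0.1 µM (adjusted p = 0.0542). Fgf15, the endocrine FGF of the embryo and gut, fell by 0.75 and Spry1, a feedback inhibitor of FGF signalling, by 0.30. Fgf15 stood at 0.38 at 0.1 µM (adjusted p = 0.0745), and without DMSO replicate 2 it became a peak. The amino acid transporters Slc7a3 (-0.83) and Slc1a4 (-0.92) and the contractile genes Tagln (-0.59) and Ppp1r14a (-0.95) fell as well. Slc1a4 became a stepwise fall without DMSO replicate 1 and Ppp1r14a a peak without replicate 1 at 1.0 µM. The means of Zfp493, Tagln and Ppp1r14a at 1.0 µM lay under background.

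The other lists and families had members in several shapes. Of 30 tested p53 targets, 12 had a shape: 5 rose at 1.0 µM alone, among them Plk2, a polo-like kinase (0.47, a stepwise rise without DMSO replicate 1), 2 rises were held, Perp rose stepwise, and 4 fell at 1.0 µM alone. Cdkn1a, the p21 inhibitor of CDKs and the best known p53 target, was not resolved into a shape (0.23 at 0.1 µM and 0.24 at 1.0 µM, adjusted p = 0.101 and 0.0464). Its call at 1.0 µM was lost in 8 of the 9 fits without 1 array (adjusted p up to 0.141). Of 22 genes of the integrated stress response and serine synthesis 7 had a shape, of 23 NRF2-type detoxification genes 9, of 27 G1/S cyclins and CDK regulators 8, and of 30 hypoxia and glycolysis genes 5. In the G1/S list Cdc25a rose and Ccnd3, cyclin D3 (-0.24), and Cdk4 (-0.26) fell at 1.0 µM alone, while Ccnd2 peaked. Of 37 contractile genes 11 had a shape, of 21 FGF and ERK feedback genes 6, of 13 Wnt receptors and targets 4, of 22 adenosine and purine enzymes 3 and of 40 chaperones 5. Against these stood 21% of all tested genes.

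Imprinted and germline genes moved in several ways. Of 15 imprinted genes, 7 had a shape (46.7%, against 21% of all tested genes), and Peg3, a zinc finger factor expressed from the paternal chromosome, fell at 1.0 µM alone. It measured 10.94, 10.89 and 10.89 in DMSO cells, 10.96, 11.03 and 10.92 at 0.1 µM and 10.36, 10.42 and 10.37 at 1.0 µM. H13, a signal peptide peptidase, rose by 0.30, so members of the list moved in opposite directions. Of the 13 germline and piRNA genes, 8 had a shape (61.5%) and 8 were higher at 0.1 µM than in DMSO cells, against 434 of all 8198 tested genes. In 6 of the 13 at least 1 group mean lay under background. Piwil2, a PIWI protein (0.40 at 0.1 µM, 0.06 at 1.0 µM), and Mael, maelstrom (0.42 and -0.05), were peaks, Ddx4 rose stepwise, and Rnf151 rose at 1.0 µM alone. Piwil2 and Mael were chosen after their values were seen, and each lost its call at 0.1 µM without at least 1 array at 0.1 µM (adjusted p up to 0.0843 and 0.0776).

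Families defined by gene name are set against the 21% of all tested genes that had a shape and the 8.97% that fell at 1.0 µM alone. Cytosolic ribosomal protein genes had 6 of 49 members in a shape (12.2%), all falls at 1.0 µM alone, with Rps12 at -0.42 and Rpl7 at -0.26. Shares were also below that of all genes for mitochondrial ribosomal protein genes (8 of 62, 12.9%), oxidative phosphorylation subunits (8 of 67, 11.9%) and proteasome subunits (3 of 41, 7.32%). The same held for Mediator and RNA polymerase II subunits (2 of 39, 5.13%), translation factors (7 of 53, 13.2%) and aminoacyl-tRNA synthetases (4 of 29, 13.8%), the last all falls at 1.0 µM alone. Tubulin genes had 5 of 10 (50%), with Tubb6 (0.37) and Tubb4b (0.49) higher and Tubb2b (-0.45) lower at 1.0 µM alone. Solute carriers had 39 of 138 in a shape (28.3%), 17 of them falls at 1.0 µM alone. Slc25a11, the oxoglutarate carrier, measured 11.34, 11.57 and 11.34 in DMSO cells, 11.28, 11.28 and 11.33 at 0.1 µM and 10.52, 10.56 and 10.64 at 1.0 µM. Collagen, laminin, integrin and cadherin genes had 7 of 19 (36.8%), of which 3 were peaks: Itgb7, an integrin of lymphocytes (0.47, under background in DMSO cells and at 1.0 µM), Lama1, a laminin chain of basement membranes (0.39), and Cdh3, P-cadherin (0.21 at 0.1 µM and -0.23 at 1.0 µM). The calls of Lama1 and Cdh3 at 0.1 µM were lost without any 1 array at 0.1 µM (adjusted p up to 0.086 and 0.112), and that of Cdh3 also without DMSO replicate 1 or 3. Long non-coding RNA genes had 33 of 88 (37.5%) and small nucleolar and Cajal body RNAs 4 of 52 (7.69%), the last all rises at 1.0 µM alone, with Snord110 at 0.89 and Snora78 at 0.68. In the broader marker lists, 2 of 4 fibroblast, 2 of 2 macrophage, 3 of 7 trophectoderm, 2 of 5 primitive endoderm, 0 of 1 mesoderm and 1 of 4 neural genes had a shape.

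The place of the 0.1 µM level differed between gene lists even where single genes were not called. Of 43 tested ribosome biogenesis genes only 1 had a shape (Nop56, a box C/D snoRNP protein, with 0.24 at 1.0 µM on its brightest probe set and no call on its other 2 against DMSO), but 33 (76.7%) had their lowest mean at 0.1 µM, against 30.5% of all tested genes. The medians of the list were small, -0.05 at 0.1 µM and 0.03 at 1.0 µM. Lysosome, contractile, hypoxia and sterol genes lay the other way: the 0.1 µM mean was the highest in 63.6% of 44, 67.6% of 37, 56.7% of 30 and 51.9% of 27 tested genes, against 32.5% of all. Other lists had such shares too, among them Dusp genes (64.3% of 14) and collagen, laminin, integrin and cadherin genes (63.2% of 19). A lowest mean at 0.1 µM was likewise frequent in 2-cell-like genes (57.1% of 14), translation factors (50.9% of 53) and chaperones (50% of 40). Neither place is thus particular to the lists named first. The genes of a list share the 9 arrays, so these shares describe the lists and carry no test.

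**Figure D5:**
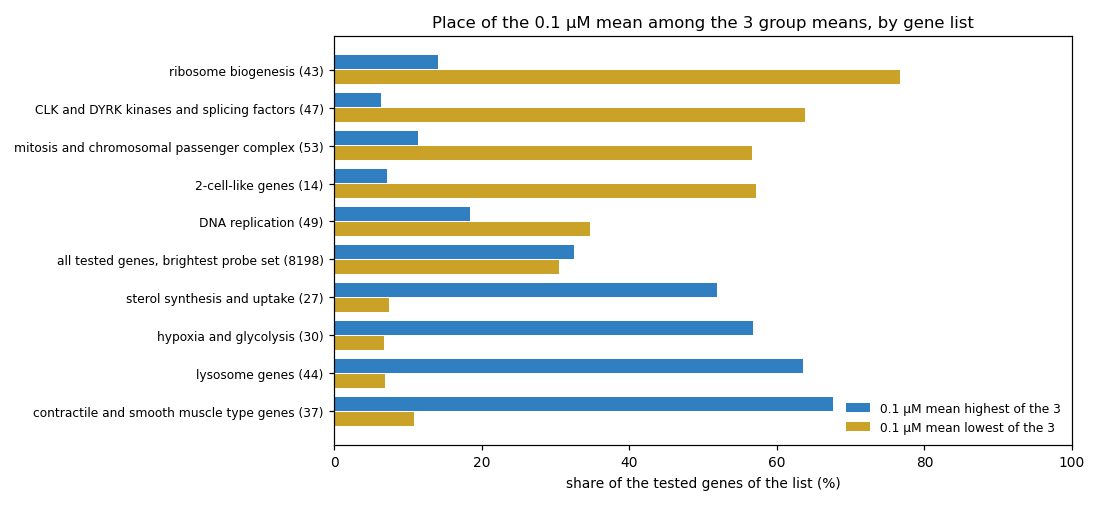
Share of the tested genes of each list drawn (percent, horizontal axis from 0) whose 0.1 µM mean was the highest or the lowest of the 3 group means, with the number of tested genes in parentheses. Not all lists are drawn. Ribosome biogenesis genes stand at 76.7% for the lowest and contractile genes at 67.6% for the highest, against 30.5% and 32.5% of all tested genes.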

How the data were processed

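RNA of E14 mouse embryonic stem cells treated for 26 h with DMSO, 0.1 µM or 1.0 µM 5-ITu was measured on 9 arrays (Affymetrix Mouse Gene 2.0 ST), 3 biological replicates per group. The authors deposited log2 values normalized by RMA in Affymetrix Expression Console (versions are not given in the sources used here), so background correction, quantile normalization and probe summary were done before deposit. The table holds 10476 probe sets, each over the background on at least 1 array, and the probe's gene names are those of the platform annotation, of which 8620 of 8625 single symbols were found in RefSeq (GRCm38.p6). Deposited probe sets name 1 gene (8854), several (668) or none (954).

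Probe sets above a log2 signal of 8.46 on at least 3 arrays were tested with limma 3.58.1 in R 4.3.3, in 1 fit of all 9 arrays with the 3 contrasts between groups, a curvature contrast and a moderated F test, and p-values were adjusted by Benjamini-Hochberg over all 9911 tested probe sets for each contrast. A stepwise shape needs both steps called the same way, a held shape both doses against DMSO and no call between doses, a peak or trough a call at 0.1 µM and an opposite one between doses, and a change at 1.0 µM alone calls against DMSO and 0.1 µM but none at 0.1 µM. SEs are those of the fit. The p-values measure the spread among these replicates of 1 line, whose number limits the precision, and 3 against 3 arrays allow no exact permutation p under 0.1, so single genes were tested only in the limma fit. The fit was tested on simulated data.

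Named genes were, for each shape, the 8 with the largest change among those that keep the shape without each array and do not overlap (the next by size where fewer keep it), up to 4 members of each of 43 lists and families, genes discussed by the study, and genes with opposite calls. Any other is said in the text to be chosen after its values were seen. Lists count each gene by its brightest probe set. The shapes, members and lists were chosen with earlier results of these data known. Alternatives were the filter on low values, quantile normalization, variance model, array weights, multiple testing, thresholds, samples in the fit, the replicate number as a block, probe sets per gene, a plain F test and each array left out. The labels do not say that replicate numbers pair the samples, so the number was used as a block only in an alternative fit. Genes without a tested probe set of their own were not analysed here. Figures were drawn with matplotlib 3.10.9.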

Additional observations from a re-analysis of the deposited data

Results flagged for a closer look

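The response of 6 genes differed in direction between the doses, with opposite calls against DMSO in the fit of all arrays and in each fit without 1 array. The level at 1.0 µM minus that at 0.1 µM, whose sign follows from the choice of these genes, was -1.02 for Derl3, -0.953 for Ppp1r1a, -0.95 for Liph, -0.79 for Accsl, -0.748 for Plaur and -0.555 for Bcl6b on the log2 scale. All 6 were higher at 0.1 µM and lower at 1.0 µM than in DMSO cells. At 1.0 µM the means of Derl3, Liph and Accsl lay under background, as did the DMSO means of Derl3 and Accsl. Accsl lay over background on 3 arrays and Derl3 on 4, those at 0.1 µM included. The falls of these genes at 1.0 µM were thus read between levels under background. The cause was not tested.

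The probe sets with several gene symbols or none were not described above. Of 1497 tested ones, 341 followed 1 of the 8 shapes, against 1795 of 8414 with 1 symbol.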

How the results depend on the processing

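Over the 525 calls of named genes and their 10862 alternative settings, no direction was reversed and 9807 settings kept the call, while 1055 settings (of 378 calls) lost it. Leaving out 1 array gave 3 to 32 stepwise rises, 0 to 20 stepwise falls, 44 to 157 held rises, 5 to 62 held falls, 62 to 230 peaks, 2 to 68 troughs, 327 to 587 rises and 566 to 821 falls at 1.0 µM alone, and 1968 to 3085 probe sets by the F test, the lows of all 8 shapes and of the F test coming without an array at 0.1 µM. Array weights gave 127 stepwise rises, 101 stepwise falls, 120 held falls, 413 peaks, 162 troughs, 954 rises at 1.0 µM alone and 4691 by the F test. Quantile normalization gave 18 stepwise falls and 90 troughs, adjustment of the 3 contrasts together 32 stepwise falls, 94 held falls and 97 troughs, and a nested F 71 stepwise rises, 61 stepwise falls, 105 held falls, 366 peaks and 121 troughs. An adjusted p under 0.1 gave 65 stepwise rises, 45 stepwise falls, 246 held rises, 131 held falls, 409 peaks and 146 troughs. The methods' thresholds, p under 0.05 with no adjustment and a change of more than 1.5-fold, left 0 stepwise rises, 0 stepwise falls, 10 held rises, 3 held falls, 14 peaks, 0 troughs, 17 rises and 92 falls at 1.0 µM alone. Contrasts fitted on their own 6 arrays gave 17 stepwise falls and 29 held falls, and a 0.1 µM change bound within 1.2-fold left 505 falls at 1.0 µM alone. No filter, a filter on all 9 arrays, trend and robust settings, the brightest probe set per gene and a plain F test kept these counts within 1.5 times. The replicate number as a block raised every count, for example to 262 peaks, 61 troughs and 3301 probe sets by the F test, and it moved none by more than 1.5 times. Same-numbered arrays deviated together in some pairs only. DMSO and 1.0 µM correlated at 0.51 for replicate 1 and 0.437 for replicate 3, and the other pairs at -0.0233 to 0.277. The labels do not say whether equal numbers mark arrays handled together. The cause of these changes was not tested. With 3 arrays per group, shapes that need a call at 0.1 µM are the least settled, and genes near background are read with little signal.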
